A study of Rattus norvegicus with 8 samples.

Results

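The miR-15/16 family of microRNAs (miRNAs) was followed in pancreatic islets of Sprague Dawley rats, the endocrine cell clusters that hold the insulin-secreting beta cells. Its members were taken as every mature product of 6 hairpins (rno-miR-15b, rno-miR-16, rno-miR-195, rno-miR-497, rno-miR-322 and rno-miR-503) on a 1-colour Agilent rat miRNA array, which gave 12 of the 677 miRNAs present. Total RNA came from islets of male rats 3 months old (adult, 4 arrays) and of rats 10 days old (P10, 4 arrays), of which 100 ng was labelled with cyanine 3. All were control animals of the same strain, and no sex is given for the P10 rats. Each array is called a biological replicate in the labels, which do not say how many animals gave its islets. The series title names beta-cell maturation as the question. Names ending in an asterisk are the less abundant arm in the array's older naming, and the rat prefix rno is dropped from here on.

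A miRNA pairs with its target messages mainly through its seed, bases 2 to 8 from its 5′ end, so miRNAs with 1 seed share many targets. The miR-15/16 seed is known for repressing cell-cycle genes such as cyclins D and E and the kinase Cdk6, and the anti-apoptotic gene Bcl2. The family is encoded in separate clusters, which lets different promoters feed 1 set of targets. In mouse heart miR-195 is known to increase around birth, when cardiomyocytes leave the cell cycle, and in mouse muscle cells miR-322 and miR-503 are known to promote cell-cycle exit. Islet cells likewise divide less after early postnatal life.

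The major-arm sequences are shown because they set which members share a seed, and miR-322* as the 1 minor arm above background on any array. They are RefSeq sequences (build GRCr8), matched by name for 12 of 12 members, read 5′ to 3′, with the seed in capitals.
miR-15b: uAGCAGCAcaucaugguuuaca
miR-16: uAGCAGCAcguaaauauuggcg
miR-195: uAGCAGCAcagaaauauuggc
miR-497: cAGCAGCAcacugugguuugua
miR-322: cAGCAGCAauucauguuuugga
miR-503: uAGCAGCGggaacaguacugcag
miR-322*: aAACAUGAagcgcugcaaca
The first 5 share the seed AGCAGCA, and miR-503 has AGCAGCG, which differs in its last base. The minor arm miR-322* has an unrelated seed, AACAUGA. Outside the seed the members diverge, with 1 exception. miR-16 and miR-195 were identical at 19 of 21 compared positions and differed only at positions 10 and 11, whereas the other 14 pairs of major arms were identical at 45.5% to 72.7% of positions. Cross-hybridisation between the miR-16 and miR-195 probes was not tested.

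The hairpins lie in 3 pairs. On the forward strand of chromosome 2, miR-15b (chr2:155555197-155555218) and miR-16 (chr2:155555343-155555364) are 124 bases apart within the span of Smc4, which encodes a condensin subunit that compacts mitotic chromosomes. miR-497 (chr10:55450172-55450193) and miR-195 (chr10:55450509-55450529) are 315 bases apart, and no RefSeq gene spans both. miR-503 (chrX:137725899-137725921) and miR-322 (chrX:137726198-137726219) are 276 bases apart on the reverse strand, within a long non-coding RNA gene, LOC102550366. These positions are those of GRCr8, while the array's own design uses rn4.

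Values below are log2 processed signals relative to each array's 75th percentile taken from 278 bright probes (those the scanner software called well above background on every array), so 0 stands for a signal at that percentile. That percentile was 1284 to 1677 signal units on the adult arrays and 388, 440, 989 and 1690 on P10 replicates 1 to 4. Per array 218 to 248 miRNAs were well above background in adult and 188 to 238 in P10. All arrays shared 1 slide and 1 scan, with one column of the slide holding adult and the other holding P10 samples, and the effects of column and age cannot be told apart. The islet markers miR-375, miR-7a and miR-204 were well above background on all 8 arrays. The number of arrays, 4 per age, limits the precision.

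Under this scaling the clusters went in opposite directions. The miR-195/miR-497 pair was higher in adult than in P10 islets, by 2.57-fold for miR-195 and 2.20-fold for miR-497. miR-15b was 2.18-fold lower, miR-322 2.08-fold lower and miR-16 1.25-fold lower in adult. These 5 major arms were the members that could be tested, and all 5 passed (limma, Benjamini-Hochberg adjusted p under 0.05 over 238 miRNAs). Of all tested miRNAs 47.5% passed, 27.3% as higher and 20.2% as lower in adult, so passing is common on these arrays. Without the filter on background 12.6% of all 677 miRNAs passed, and the same 5 members were among them. The ages did not overlap for any of the 5, as for 45.8% of all tested miRNAs. The median difference of all tested miRNAs was -0.01. The split of 65 higher and 48 lower calls was 90 and 34 with the percentile over all probes, 58 and 17 without scaling, 55 and 9 with spike-in scaling, 33 and 47 with normexp background correction and, for cyclic loess on all probes, 12 and 22.

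miR-195 lay at -0.17, -0.17, -0.22 and -0.49 on adult replicates 1 to 4, against -2.05, -1.83, -1.36 and -1.26 on P10 replicates 1 to 4. Every adult array was above every P10 array, and the P10 arrays spread more widely. The difference was 1.36 ± 0.20 (log2, SE, n = 4 per age, limma adjusted p = 0.000815).

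Its cluster partner miR-497 lay at -0.35, -0.28, -0.44 and -0.74 in adult, against -1.999, -1.71, -1.44 and -1.22 in P10. The arrays stood in the same order as for miR-195, with adult replicate 4 lowest among adults and P10 replicate 1 lowest of all. The difference was 1.14 ± 0.19 (log2, SE, n = 4 per age, limma adjusted p = 0.00172).

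miR-15b lay at -0.18, -0.21, -0.24 and -0.42 in adult, against 1.00, 1.07, 0.69 and 0.68 in P10. All adult arrays fell below all P10 arrays. The difference was -1.12 ± 0.13 (log2, SE, n = 4 per age, limma adjusted p = 0.000247).

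miR-16, encoded next to miR-15b, moved less under this scaling. It lay at 2.12, 2.05, 1.99 and 1.96 in adult, against 2.27, 2.39, 2.45 and 2.31 in P10, a narrow gap without overlap. The difference of -0.33 ± 0.09 (log2, SE, n = 4 per age) had a limma adjusted p of 0.0242. That call ended without adult replicate 2, 3 or 4 or P10 replicate 2 or 3 (adjusted p 0.0568 to 0.0817), and the sign turned with the percentile over all probes (0.14), without scaling (0.63) and with spike-in scaling (0.71). Other treatments gave a larger fall that passed, -0.93 with quantile normalization, -0.95 and -0.86 with cyclic loess on all and on bright probes, and -0.76 in the authors' deposited table.

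miR-322, the major product of the X-linked pair, lay at -2.45, -2.44, -2.59 and -2.38 in adult, against -1.49, -1.54, -1.29 and -1.33 in P10. Both ages were tight, with SDs of 0.09 and 0.12, and did not overlap. The difference was -1.06 ± 0.10 (log2, SE, n = 4 per age, limma adjusted p = 0.000141).

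**Figure D1:**
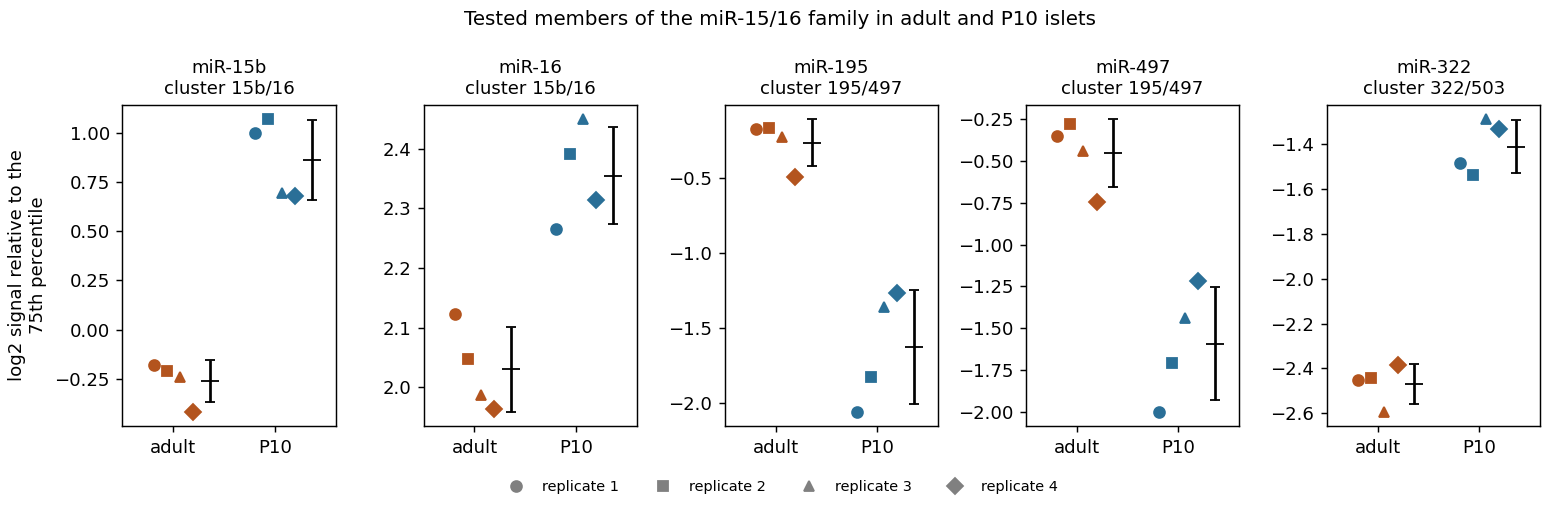
Log2 signal relative to the array's 75th percentile for the 5 tested members, adult left and P10 right. Each symbol is 1 array, bars show mean ± SD (n = 4), and each panel has its own vertical scale. miR-195 and miR-497 are higher in adult, miR-15b, miR-16 and miR-322 are lower, and no panel has overlapping ages.

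The array carries 2 probes for each of these 5 miRNAs, and the values above come from the brighter one. On the dimmer probe the differences were 1.57 for miR-195, 0.78 for miR-497, -1.25 for miR-15b, -0.56 for miR-16 and -1.15 for miR-322 (log2, adult minus P10). Both probes thus went the same way for each of the 5, with the largest relative gap for miR-16.

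The remaining 7 products could not be tested. The minor arms miR-15b*, miR-16*, miR-195*, miR-497* and miR-503* were not well above background on any array with any probe, so nothing is shown about them beyond that. miR-322* was well above background on 0 of 4 adult and 2 of 4 P10 arrays. The scanner software's separate call per miRNA detected it on 2 adult and 4 P10 arrays. Its processed signal was 13.6, 7.46, 17.7 and 8.71 in adult, against 18.6, 21.3, 58.2 and 90.6 in P10, where replicates 3 and 4 are the arrays above background. The mean of the 4 P10 values lay 2.28-fold above the adult detection limit. That limit was, on each array, the highest of its dimmest signal called well above background, the probe's own signal and the floor of -5.51. Of those 4 P10 values 2 were themselves not called above background. They lay below their own arrays' limits, so this is no firm lower bound on the difference. miR-503, whose seed differs in 1 base, was also above background on 0 of 4 adult and 2 of 4 P10 arrays. Its signal was 6.70, -2.40, 5.08 and 4.80 in adult, against 10.5, 8.92, 34.2 and 52.1 in P10. By the same rule its P10 mean lay 1.21-fold above the adult limit. On P10 replicates 1 and 2 it was at -5.21 and at the floor. The limits of those arrays were -4.11 and -4.27, so this is no lower bound either. Neither comparison was tested, and the higher P10 signals lie on the 2 brighter P10 arrays.

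The authors' deposited table of log2 values, normalized between arrays in a way not given in the sources used here, lists 7 of the 12 products. Once sorted, its columns differed by at most 0.0079, as after quantile normalization. It is therefore no treatment independent of that one. In that table miR-503 averaged 2.95 ± 0.60 in adult and 4.86 ± 0.50 in P10 (SD, n = 4 each), and miR-322* averaged 3.57 ± 0.31 in adult and 5.30 ± 0.45 in P10 (SD, n = 4 each). All 311 miRNAs of that table were detected by the scanner software on at least 1 array. miR-503 was detected on 0 adult and 2 P10 arrays, so it is listed through P10 alone and no test of it is given. miR-322* was detected on 2 adult and 4 P10 arrays, so its adult values come partly from undetected signals. The limma fit over the 311 gave miR-322* an adjusted p of 0.000948, where 38.9% of the 311 passed. miR-503 and miR-322* stand near the bottom of the table, with 5.79% and 14.8% of its miRNAs below them.

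The X-linked cluster holds further miRNAs outside the seed family, and these were looked at in the same way. miR-450a lay at -4.47, -4.62, -4.65 and -4.48 in adult, against -2.62, -2.46, -2.43 and -2.65 in P10. It fell by 2.02 ± 0.10 (log2, SE, n = 4 per age, limma adjusted p = 7.87e-06), a larger log2 difference than the -1.06 of miR-322. miR-542-3p and miR-542-5p were above background on 0 of 4 adult and 2 of 4 P10 arrays. By the same rule their P10 means lay 2.66-fold and 2.22-fold above the adult limit. Of their P10 values 1 and 2 lay below their own arrays' limits, so these are no firm lower bounds. Neither comparison was tested. miR-351 was above background on no array.

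**Figure D2:**
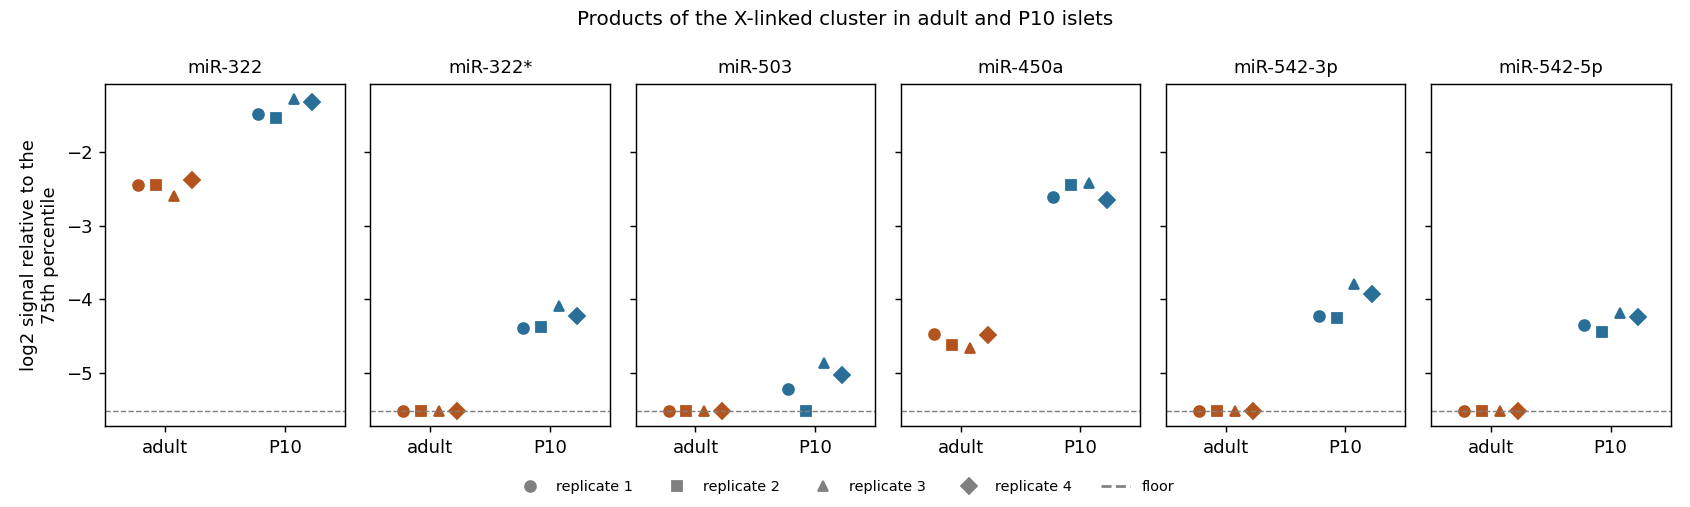
Log2 signal relative to the array's 75th percentile for 6 products of the X-linked cluster, adult left and P10 right, 1 symbol per array. The dashed line is the floor of -5.51 to which lower values were raised. miR-322 and miR-450a are measured on all arrays and lower in adult, and the other 4 lie at the floor on every adult array.

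Whether members changed unequally with age was asked within each array, where a constant scaling factor cancels. For each of the 10 pairs of tested members the log2 ratio was taken per array and the ages compared with an exact two-sided permutation test over 70 splits of the arrays. The level of such a ratio depends on the 2 probes and is no ratio of abundances, so only its change between ages is read. The ages did not overlap for 9 pairs, each with the smallest p the design allows, 0.0286 (adjusted p = 0.0317 over the 10 pairs, exact permutation). Where a member was higher and the other lower in adult, this followed from the members' own non-overlap and is no separate evidence. Only pairs that changed in the same direction could have come out otherwise. The pairs reuse the same members, and how often pairs of other miRNAs pass was not computed. Singly, the ages did not overlap for 45.8% of all tested miRNAs.

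The largest changes were between clusters. The ratio of miR-195 to miR-322 was 2.28, 2.28, 2.37 and 1.89 in adult, against -0.57, -0.29, -0.07 and 0.07 in P10. It rose by 2.42 ± 0.18 (log2, SE), a 5.35-fold change in favour of miR-195. The ratio of miR-15b to miR-195 was -0.01, -0.04, -0.02 and 0.08 in adult, against 3.05, 2.90, 2.05 and 1.94 in P10. It fell by 2.48 ± 0.29, 5.60-fold, and its adult values were far tighter than its P10 values. The ratio of miR-15b to miR-497 fell by 2.26 ± 0.27 and that of miR-322 to miR-497 by 2.19 ± 0.18. The ratios of miR-16 to miR-195 and miR-497 fell by 1.69 ± 0.18 and 1.46 ± 0.18, less than those of miR-15b.

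Partners within a cluster also shifted against each other, though by less. The ratio of miR-15b to miR-16 was -2.30, -2.26, -2.23 and -2.38 in adult, against -1.27, -1.32, -1.75 and -1.64 in P10. It fell by 0.80 ± 0.12 (log2, SE), 1.74-fold, but with quantile normalization the change was -0.36 (exact permutation adjusted p = 0.107). The ratio of miR-195 to miR-497 was 0.19, 0.11, 0.22 and 0.25 in adult, against -0.06, -0.12, 0.08 and -0.04 in P10. This change of 0.23 ± 0.05 was the smallest of the 9, and without any 1 adult array its exact permutation adjusted p was 0.0635. The ages still did not overlap then, and that p reflects the uneven split of the arrays. The change was 0.51 with the mean of all probes, 0.38 in the authors' deposited table and 0.36 with total gene signal. It turned to -0.39 where cyclic loess was applied to all probes.

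Across clusters, miR-15b and miR-322 were the 1 pair that did not pass. Their ratio was 2.27, 2.24, 2.35 and 1.97 in adult, against 2.48, 2.61, 1.98 and 2.01 in P10. The ages overlapped and the change was -0.06 ± 0.18 (log2, SE, exact permutation p = 0.714), which does not show that they changed alike. It was -0.66 with cyclic loess on all probes, -0.41 with quantile normalization and -0.31 in the authors' deposited table, none of which passed. The ratio of miR-16 to miR-322 rose by 0.73 ± 0.08, but it turned to -0.05 with quantile normalization and to -0.31 where cyclic loess was applied to all probes.

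**Figure D3:**
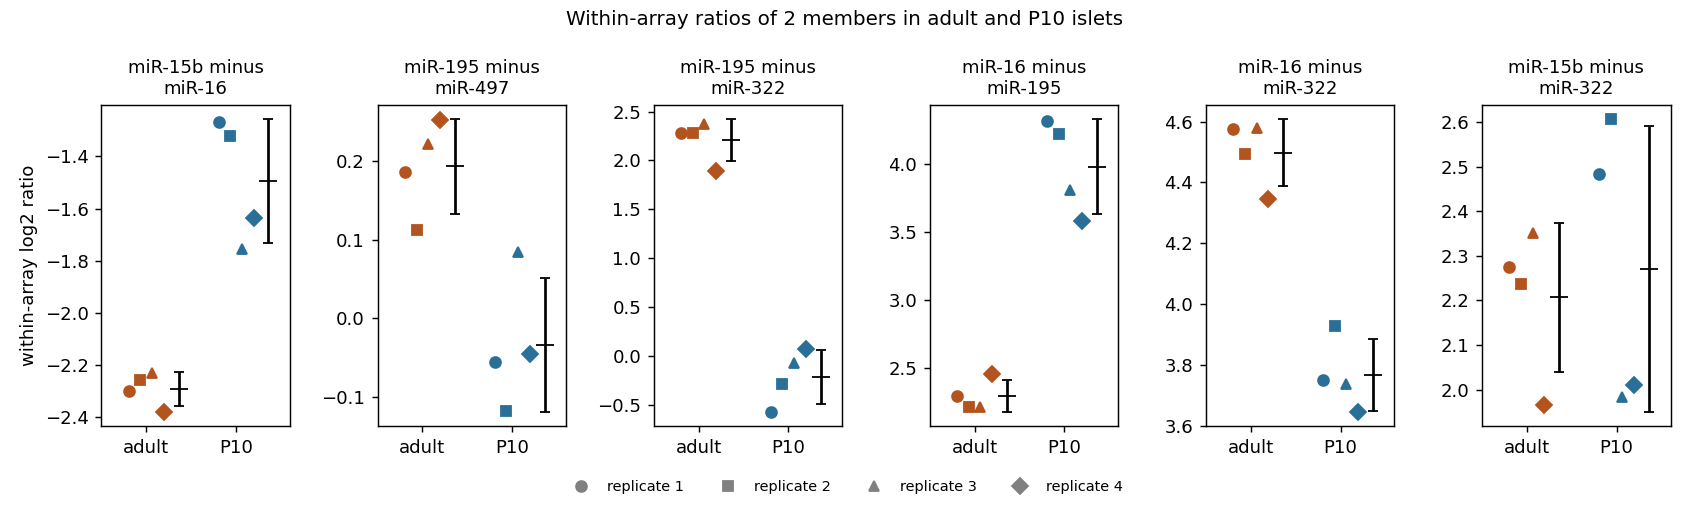
Within-array log2 ratio of 2 members for 6 of the 10 pairs, adult left and P10 right. Each symbol is 1 array, bars show mean ± SD (n = 4), and each panel has its own vertical scale. The ages are apart in 5 panels, most widely for miR-195 to miR-322, and overlap for miR-15b to miR-322.

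The size and, for miR-16, the sign of the differences against all other miRNAs depended on the scaling. The unscaled processed signals show this directly. For miR-195 they were 1206, 1248, 1439 and 913 units in adult, against 93.5, 124, 386 and 704 in P10, and for miR-497 they were 1060, 1154, 1234 and 767 in adult, against 97.2, 135, 365 and 726 in P10. Both were apart by age even so. For miR-15b the signals were 1197, 1213, 1418 and 962 in adult, against 776, 923, 1601 and 2704 in P10, and for miR-322 they were 247, 257, 278 and 246 in adult, against 139, 152, 405 and 671 in P10. For miR-16 they were 5895, 5793, 6651 and 5007 in adult, against 1867, 2309, 5403 and 8407 in P10. In these 3 the adult arrays lie inside the P10 range, with P10 replicates 1 and 2 below and replicate 4 above them. Without scaling the median difference of all tested miRNAs was 0.94, and with spike-in scaling 1.01. The spike-in features were identified from their names on the array alone. In those settings miR-195 stood at 2.32 and 2.40 and miR-497 at 2.10 and 2.17, all past the threshold, while miR-15b (-0.16 and -0.09) and miR-322 (-0.10 and -0.02) were near 0 and did not pass. Over 26 alternatives miR-497 passed in 26, miR-195 in 25, miR-15b in 24, miR-322 in 22 and miR-16 in 14, with miR-16 turned in sign in 3. Many of these alternatives change little: the filter, floor, limma trend and block settings left each difference unchanged, and others left out a single array. The exception for miR-195 was cyclic loess over all probes (0.59, limma adjusted p = 0.204).

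**Figure D4:**
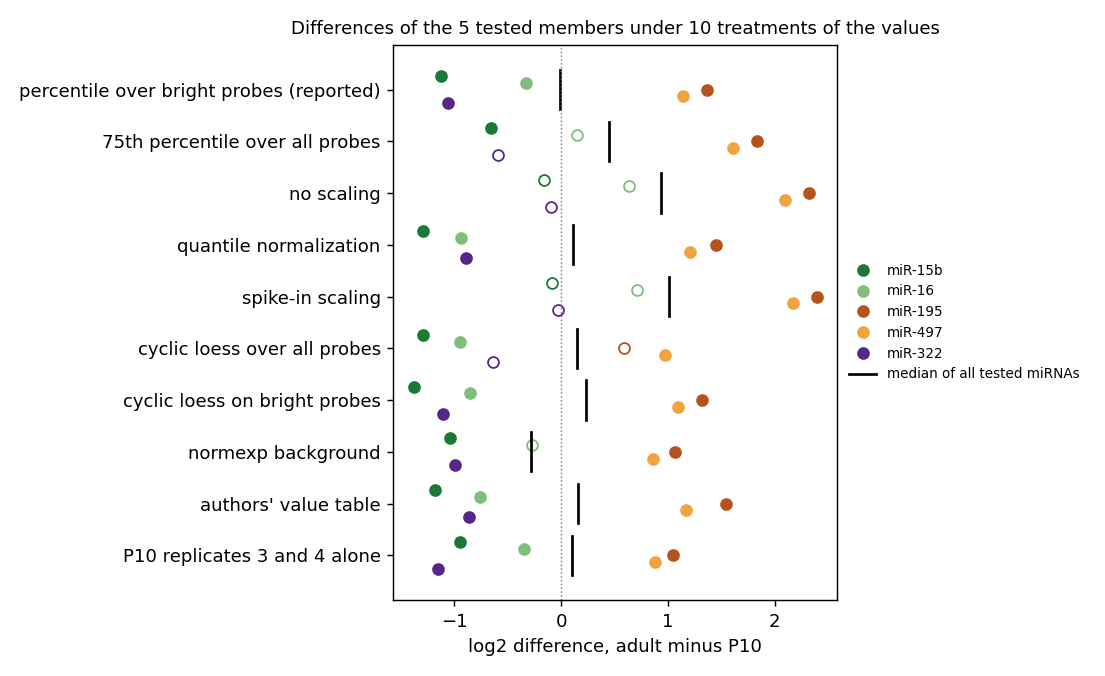
Log2 difference (adult minus P10) of the 5 tested members under 10 treatments of the values, 1 per row. Filled symbols passed limma at an adjusted p under 0.05, open symbols did not, and black bars mark the median of all tested miRNAs. miR-195 and miR-497 lie right of the bar in all rows, and miR-15b and miR-322 lie left of it.

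The P10 arrays fell into pairs for several members. Replicates 1 and 2 had less miR-195 and miR-497 and more miR-15b than replicates 3 and 4. These 2 arrays were the dimmest, and their summed islet markers were the lowest, 11.3 and 17.0 against 23.7 and 24.0 on replicates 3 and 4 (linear scale, 1 is the 75th percentile) and 41.3 to 47.3 in adult. Their summed acinar markers (miR-216a and miR-217) were the highest, 0.783 and 0.632 against 0.0587 and 0.0440, with 0.195 to 0.397 in adult. On replicate 4 both of these markers were at the floor, and on replicate 3 miR-217 was. A further acinar miRNA on the array, miR-216b-5p, was left out of that sum. Its log2 difference, adult minus P10, was -0.47, against 0.61 for miR-216a and 0.51 for miR-217, and none of these passed. With P10 replicates 3 and 4 alone, all 5 members kept direction and passed, at 1.05 for miR-195, 0.87 for miR-497, -0.95 for miR-15b, -0.35 for miR-16 and -1.16 for miR-322. In that setting 52.5% of all tested miRNAs passed.

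Markers of other cell types differed between the ages as well. Of 5 mesenchymal markers miR-143 was higher and miR-199a-5p, miR-199a-3p and miR-214 were lower in adult, with sums of 5.10 to 7.11 in adult and 4.27 to 7.38 in P10. All 3 islet markers were higher and all 3 gut epithelium markers (miR-192, miR-194 and miR-215) lower in adult, and the gut sums were 0.280 to 0.508 in adult and 1.11 to 13.5 in P10. Both erythroid markers were higher, at sums of 0.250 to 0.652 in adult and 0.147 to 0.253 in P10. None of 2 endothelial markers, 4 leukocyte markers and 1 muscle marker tested passed. Endothelial sums were 2.92 to 3.32 in adult and 2.34 to 4.71 in P10. Leukocyte sums were 1.24 to 1.58 in adult and 0.721 to 3.64 in P10. The muscle sums, over 4 miRNAs, were 0.121 to 0.163 in adult and 0.0881 to 0.156 in P10. They hold the defining muscle miRNAs miR-1, miR-133a and miR-206, which were above background on no array and enter at the floor. The P10 low of 0.0881 is floor values alone. The part of these cells and of array brightness in the family's differences was not tested, and in whole islets fewer cells of a type and less RNA per cell cannot be told apart.

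By pattern over the 8 arrays, miR-195 and miR-497 were each other's nearest among 164 miRNAs above background on all arrays, with a Pearson r of 0.994. Next for miR-195 came let-7e (0.986) and miR-23a (0.986), and for miR-497 miR-23a (0.986) and let-7e (0.978). miR-322 was nearest to miR-450a (0.986) of the same cluster, then to miR-872 (0.980) and miR-199a-5p (0.967). miR-15b was nearest not to miR-16 (0.905) but to miR-20b-5p (0.999), miR-181c (0.997) and miR-20a (0.997). miR-16 was nearest to miR-199a-3p (0.954), miR-199a-5p (0.954) and miR-214 (0.946). These are descriptions over 8 arrays of 2 ages that share array brightness and scaling, and any miRNAs that differ by age correlate.

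The letters AGCAGC stand within bases 1 to 8 of 8 of the 693 rat mature miRNAs in the RefSeq table (1.15%). Besides the 6 major arms these are miR-103 and miR-107, known regulators of insulin sensitivity in mouse liver and fat, in which the letters begin at base 1 instead of base 2. They are shown with those letters in capitals.
miR-103: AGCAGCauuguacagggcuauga
miR-107: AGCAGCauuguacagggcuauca
miR-103 averaged 0.45 ± 0.04 in adult and 0.24 ± 0.36 in P10 (SD, n = 4 each), a difference of 0.20 with a limma adjusted p of 0.406. miR-107 averaged 0.68 ± 0.07 in adult and 0.21 ± 0.35 in P10 (SD, n = 4 each), a difference of 0.47 with a limma adjusted p of 0.0582. Neither passed, although the ages did not overlap for miR-107. Of the 7 tested miRNAs that carry these letters, 2 were thus called higher and 3 lower in adult. Over all tested miRNAs 27.3% were called higher and 20.2% lower.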

How the data were processed

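The members and lists were chosen with earlier results of these data known. The authors deposited scanner files of intensity values written by the scanner software Feature Extraction (Agilent, version 10.7.3.1 per the file headers), with the processed signal already background-subtracted, and a table of log2 values whose normalization method is not stated in the labels. Of 13540 non-control features, those flagged as outliers (2.34% to 3.65% per array) were left out. None was saturated. Features of a probe were averaged, divided by the array's 75th percentile over 278 bright probes, raised to a floor of -5.51 (log2 scale) and put on a log2 scale. Each miRNA took its brightest probe, and limma 3.58.1 in R 4.3.3 was run on the 238 miRNAs that reached well above background on 4 or more arrays, as adult minus P10 without a block, p-values being adjusted by Benjamini-Hochberg. The fit was tested on simulated data. Named miRNAs were all members, the rest of the X-linked cluster, other miRNAs with AGCAGC in bases 1 to 8, and the 3 nearest patterns per tested member. Slide and scan were shared by all arrays. Alternatives covered scaling, background, signal, probe summary, filter, floor, variance model, weights, blocks, the authors' table and leaving out arrays. The normexp correction used median signals.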

Additional observations from a re-analysis of the deposited data

Results flagged for a closer look

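Among 31 groups of 4 values checked, 2 had 1 array standing apart, where chance gives about 1 in 20. miR-195 on adult replicate 4 was at -0.49, below the other adult arrays at -0.22 to -0.17. On the same array the log2 ratio of miR-322 to miR-497 was -1.64, above the other adult arrays at -2.17 to -2.10. Without adult replicate 4 the difference of miR-195 was 1.44 and that ratio changed by -2.32.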

How the results depend on the processing

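Of 26 alternatives, the count of miRNAs called (113) moved by over 1.5 times in 4, to 75 without scaling, 64 with spike-in scaling, 179 with array weights and 34 with cyclic loess over all probes, and it ranged from 84 to 138 with 1 array left out. Of calls lost, miR-15b was at -0.161 without scaling and -0.0892 with spike-in scaling. miR-322 was at -0.588 with the percentile over all probes, -0.0971 without scaling, -0.0249 with spike-in scaling and, where cyclic loess took all probes, -0.637, with miR-195 at 0.586. miR-16 turned to 0.144, 0.635 and 0.707 with the percentile over all probes, without scaling and with spike-in scaling, and lost its call at -0.277 with normexp and -0.263 with total gene signal. With the replicate block or slide row as a block it stayed at -0.325 with limma adjusted p of 0.106 and 0.0961, and the replicate block changed no other member's call. Same-numbered arrays shared only a number (correlations of deviations 0.177, -0.0897, 0.475 and -0.230), and the block gave 95 calls. With 1 array left out the member differences were -1.18 to -1.05 for miR-15b, -0.356 to -0.294 for miR-16, 1.22 to 1.48 for miR-195, 1.00 to 1.26 for miR-497 and -1.10 to -1.02 for miR-322.

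Within-array ratios moved most with cyclic loess over all probes, where none of the 10 passed. The ratios of miR-15b and miR-16 to miR-195 and miR-497, and of miR-322 to miR-497, had an exact permutation adjusted p of 0.0571. That is the smallest p of the design, 0.0286, adjusted when fewer pairs reach it. For these pairs not passing reflects the other pairs under this loess. There miR-16 to miR-322 turned to -0.312 and miR-195 to miR-497 to -0.385, and miR-15b to miR-16 (-0.344), miR-15b to miR-195 (-1.88), miR-15b to miR-497 (-2.26), miR-16 to miR-195 (-1.53), miR-16 to miR-497 (-1.92), miR-195 to miR-322 (1.22) and miR-322 to miR-497 (-1.61) kept direction, as did miR-15b to miR-322 (-0.656). miR-16 to miR-322 also turned to -0.0457 with quantile normalization, where miR-15b to miR-16 was -0.363, and was 0.109 in the authors' value table, not called in either. With P10 replicates 3 and 4 alone, where 15 splits allow no p under 0.0667, miR-15b to miR-16 was -0.596, miR-15b to miR-195 -1.99, miR-15b to miR-322 0.210, miR-15b to miR-497 -1.82 and miR-16 to miR-195 -1.40. With 1 array left out miR-195 to miR-497 ranged from 0.198 to 0.265, called in 4 of 8, with the ages apart in each. The causes were not tested. Signal near background limits miR-503 and miR-322*, which were well above background on only 2 P10 arrays.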
